A study of Mus musculus with 10 samples.

Results

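The genes that write and maintain DNA methylation were examined for TET2 occupancy in mouse embryonic stem (ES) cells. The members were chosen by name, with earlier results of these data known. They are Dnmt1, Dnmt3a, Dnmt3b, Dnmt3l, Uhrf1 and Uhrf2, which make up 6 of the 21887 protein-coding genes of the gene table used. ChIP-seq peaks were counted for a member where they overlapped its span in the mm10 build, or lay within 50 kb of it with no protein-coding gene nearer. Merging the peaks of all lists where they shared at least 1 bp gave 26 regions at these genes, of 79350 in all. Dnmt3a held 11 of them, Dnmt3b and Dnmt3l 4 each, Uhrf1 and Uhrf2 3 each, and Dnmt1 held 1.

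DNMT1 copies methylation onto the new DNA strand after replication, and UHRF1 brings it there by binding hemimethylated CpG sites. DNMT3A and DNMT3B place methylation on unmethylated DNA, and DNMT3L, which has no catalytic activity of its own, supports them. UHRF2 is a relative of UHRF1 with a similar domain layout. TET2 works in the opposite direction, since it oxidises methylated cytosine.

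All cells were ES cells grown in serum with LIF, the GSK-3 inhibitor CHIR99021 and the MEK1 inhibitor PD0325901. A rabbit polyclonal antibody to N-terminal TET2 served for Tet2fl/fl cells, called wild-type, and for Tet2-/- cells, called knockout. FLAG M2 affinity gel served for Tet2fl/fl cells whose endogenous TET2 carries a 2x-Flag tag, called FLAG-TET2, and for untagged Tet2fl/fl cells, called parental. By these labels, wild-type and parental cells share a genotype and lack a tag, and their libraries differ in the reagent. Each of the 4 groups had 2 libraries, and no label names separate cultures, so their spread, and any p-value resting on it, may be technical only. No input or IgG list was analysed here. Lists from wild-type and FLAG-TET2 cells are called target lists, and those from knockout and parental cells control lists. The 8 lists held between 2261 (knockout replicate 1) and 63612 (FLAG-TET2 replicate 1) peaks, and the read depth behind them is unknown. Fold enrichments are the authors' own values for single peaks and are linear ratios. They describe peaks within 1 list and are not compared between lists. Percentiles, also within a list, give the rank of a peak's −log10 q as a percent of its peaks, with 100 the highest. A region is called common where each target list has a peak and no control list has one.

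RefSeq gives 13 transcription starts for the 6 genes (mm10, GRCm38.p6), and the 300 bases around each, from 250 before to 50 after, were read from its promoter table. The 6 windows below are examples of starts with peaks in most or all target lists, a start covered by peaks of the FLAG resin, and a start with no peak. They run 5′ to 3′ on the gene's own strand, and capitals mark CpG dinucleotides, the sites that these enzymes act on.
Dnmt1, at the third start, chr9:20952574-20952873, minus strand: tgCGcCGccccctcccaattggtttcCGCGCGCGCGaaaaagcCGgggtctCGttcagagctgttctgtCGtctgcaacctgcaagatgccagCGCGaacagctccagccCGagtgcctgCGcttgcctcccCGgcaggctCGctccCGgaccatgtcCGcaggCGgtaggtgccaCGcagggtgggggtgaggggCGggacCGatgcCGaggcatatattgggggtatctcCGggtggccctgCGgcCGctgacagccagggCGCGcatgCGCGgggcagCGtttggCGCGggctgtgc
Dnmt3a, at the second start, chr12:3806910-3807209, plus strand: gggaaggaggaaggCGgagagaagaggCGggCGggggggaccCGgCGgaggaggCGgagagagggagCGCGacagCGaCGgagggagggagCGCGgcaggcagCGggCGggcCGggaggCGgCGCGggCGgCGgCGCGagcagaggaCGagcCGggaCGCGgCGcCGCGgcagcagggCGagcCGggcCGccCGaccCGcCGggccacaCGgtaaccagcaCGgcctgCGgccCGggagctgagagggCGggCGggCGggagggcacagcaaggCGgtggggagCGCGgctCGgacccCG
Dnmt3a, at the third start, chr12:3891494-3891793, plus strand: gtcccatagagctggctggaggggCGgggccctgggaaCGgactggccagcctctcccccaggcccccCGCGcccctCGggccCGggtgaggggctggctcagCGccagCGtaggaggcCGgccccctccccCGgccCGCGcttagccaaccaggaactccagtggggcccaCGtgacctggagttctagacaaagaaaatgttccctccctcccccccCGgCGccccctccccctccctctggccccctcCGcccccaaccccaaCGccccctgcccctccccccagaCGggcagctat
Dnmt3l, at the second start, chr10:78049592-78049891, plus strand: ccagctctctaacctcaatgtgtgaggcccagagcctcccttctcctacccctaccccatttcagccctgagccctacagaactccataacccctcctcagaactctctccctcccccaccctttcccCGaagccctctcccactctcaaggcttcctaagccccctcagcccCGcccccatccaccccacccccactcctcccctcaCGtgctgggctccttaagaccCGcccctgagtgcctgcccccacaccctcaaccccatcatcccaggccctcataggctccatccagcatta
Uhrf1, at the second start, chr17:56304063-56304362, plus strand: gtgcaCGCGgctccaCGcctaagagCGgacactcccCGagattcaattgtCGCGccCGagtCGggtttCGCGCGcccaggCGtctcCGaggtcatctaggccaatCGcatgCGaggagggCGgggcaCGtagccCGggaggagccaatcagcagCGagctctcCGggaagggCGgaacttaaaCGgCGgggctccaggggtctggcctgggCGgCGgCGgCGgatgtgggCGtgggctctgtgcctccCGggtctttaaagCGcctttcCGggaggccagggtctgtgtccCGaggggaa
Uhrf2, at its single start, chr19:30030263-30030562, plus strand: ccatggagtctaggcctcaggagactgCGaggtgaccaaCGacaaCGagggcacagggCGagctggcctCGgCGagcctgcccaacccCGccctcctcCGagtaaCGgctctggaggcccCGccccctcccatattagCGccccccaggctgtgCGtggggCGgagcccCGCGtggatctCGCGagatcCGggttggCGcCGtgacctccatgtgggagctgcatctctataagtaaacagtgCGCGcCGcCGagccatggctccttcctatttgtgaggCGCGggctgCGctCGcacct

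These windows differed widely in CpG content. The second Dnmt3a start had 47 CpG sites, more than 98.2% of the 21263 promoter windows of protein-coding genes, whose median was 13. The Dnmt1 and Uhrf1 windows had 33 each, Uhrf2 had 28, the third Dnmt3a start 18 and the second Dnmt3l start 4. The single Dnmt3b start (chr2:153649199-153649498, not printed) had 30. All 4 target lists had a peak overlapping the printed Dnmt1 and Uhrf1 windows, 3 did so at Uhrf2 and at the third Dnmt3a start, 1 at the second Dnmt3a start, and 0 at the Dnmt3b window and the printed Dnmt3l window. Control peaks overlapped some of these windows too. They came from parental replicate 1 at Dnmt1, knockout replicate 2 at Uhrf1, and knockout replicate 2 and parental replicate 1 at Uhrf2. At the second Dnmt3a start, both parental lists had one. The E-box letters CACGTG were in 2 of the 13 windows, the third Dnmt3a start and the second Dnmt3l start, against 7.84% of all promoter windows. The STAT-type letters TTCNNNGAA were in 1, the second Dnmt3l start, against 7.69%. The ESRRB motif AAGGTCA, the octamer ATTTGCAT and TATAAA were in 0, against 4.08%, 1.66% and 12.6% of all windows. Both strands were searched.

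Dnmt3a, a de novo methyltransferase, held the most prominent common region of these genes. The region (chromosome 12, 3889714 to 3890331) lies inside the gene span, 1.41 kb upstream of the third start, from which the shorter isoform that ES cells mainly make is transcribed. The authors' fold was 10.6 and 11.5 in wild-type replicates 1 and 2, and 20.1 and 11.7 in FLAG-TET2 replicates 1 and 2, with no peak in any control list. Within its list, each of these peaks ranked high, at percentiles of 89.9, 94.8, 94.2 and 88.9. The 4 summits lay at -1561, -1579, -1612 and -1586 bp from the start (negative is upstream), a range of 51 bp. Over all 4521 common regions the median range was 53 bp, so this spacing is usual for them. The mean percentile, 92 against a median of 70.7, was higher than that of 91.7% of common regions.

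A second region at the same start (3891424 to 3891664) overlapped the printed window. Its fold was 8.38 and 6.46 in wild-type replicates 1 and 2 and 5.04 in FLAG-TET2 replicate 1. FLAG-TET2 replicate 2 and all control lists had no peak there. A weaker peak of wild-type replicate 1 alone, of fold 3.64, lay 205 bp downstream of the start (3891949 to 3892159).

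The outer starts of Dnmt3a showed the reverse pattern, with peaks of the FLAG resin whether or not the cells carried the tag. In the region over these starts (3806059 to 3807527) the fold was 40.5 and 18.5 in FLAG-TET2 replicates 1 and 2, and 37.2 and 21.8 in parental replicates 1 and 2. Wild-type replicate 1 had a fold of 6.34 there, and wild-type replicate 2 and both knockout lists had no peak. Within their lists, the tagged peaks ranked at percentiles of 98.9 and 96.4 and the untagged ones at 98.3 and 92.5, while the wild-type peak was at 47.4. The highest summits of the 5 lists lay within 50 bp of each other, at -642 to -592 bp from the first start.

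A region 38.9 kb downstream of the second start (3846094 to 3846373) had the same resin pattern. FLAG-TET2 replicates had folds of 20.9 and 13.8 there, parental replicates had 23.5 and 13.1, and no list of the TET2 antibody had a peak there. These 2 of the 26 regions (7.69%) had peaks in each of the 4 lists made with the resin, against 10.1% of all merged regions. FLAG-TET2 replicate 1 and parental replicate 1 shared 2 more regions of Dnmt3a. Their folds were 8.74 and 7.74 in the region at 3807626 to 3808194, and 6.47 and 6.58 in that at 3878332 to 3878557.

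The remaining Dnmt3a regions belonged to the TET2 antibody or to a single list. A region at 3825786 to 3826006 had folds of 5.76 and 6.56 in the wild-type replicates and no peak elsewhere. At 3871713 to 3871931 the wild-type replicates had folds of 9.02 and 5.98, and knockout replicate 2 had 6.88. Wild-type replicate 1 alone had a peak at 3871176 to 3871449 (fold 4.61), and FLAG-TET2 replicate 1 alone at 3887652 to 3887809 (fold 4.10).

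**Figure D1:**
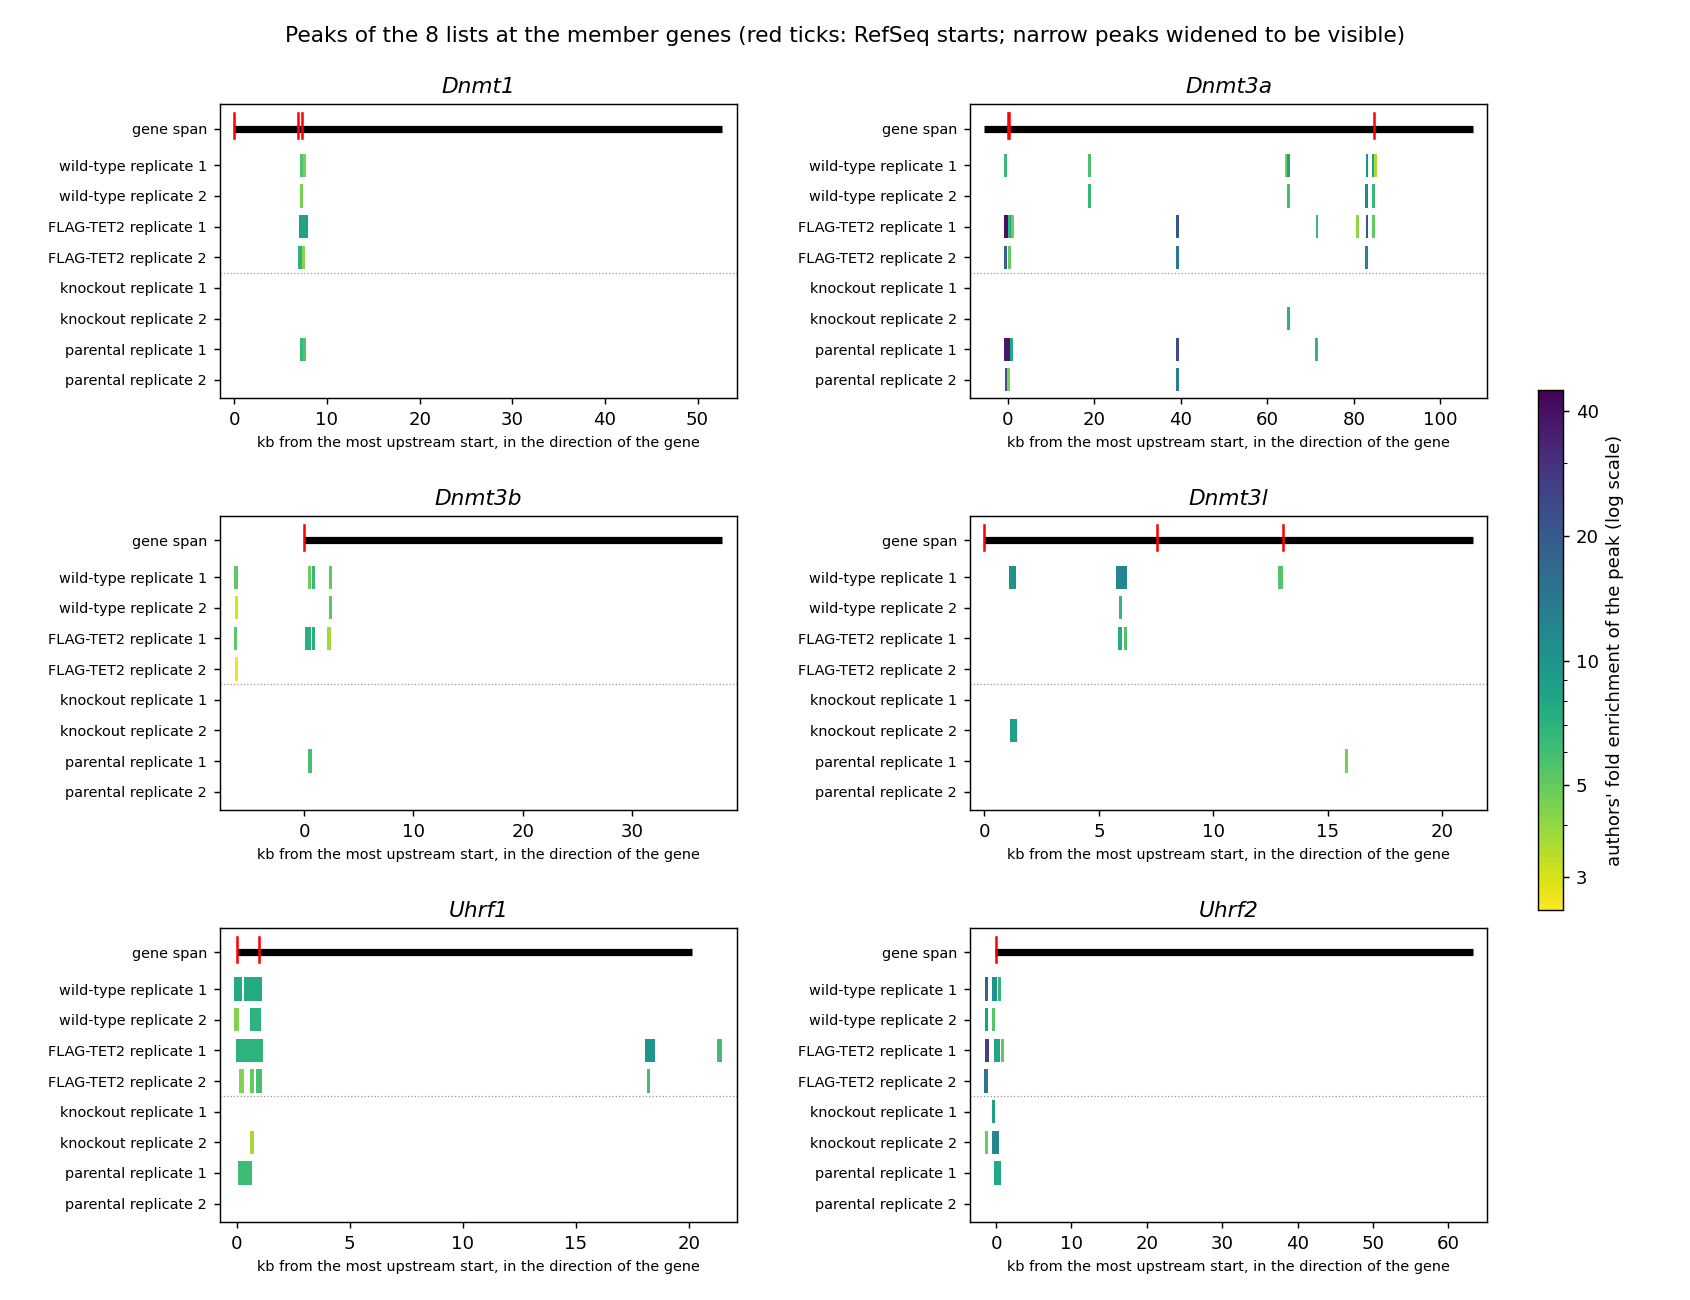
Peaks of each list along the 6 genes, with distance from the most upstream start in kb on the x axis, 1 row per list (target lists above the dotted line) and the authors' fold as colour on a log scale. Red ticks are RefSeq starts, and peaks too narrow to see were widened. In Dnmt3a, the peaks 1.41 kb upstream of the third start appear in the 4 target rows alone. Those at the outer starts and at about 39 kb appear in FLAG-TET2 and parental lists, and wild-type replicate 1 also has a peak at the outer starts.

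Dnmt3b, the other de novo enzyme, held the second common region, and it was weak. The region (chromosome 2, 153643061 to 153643383) lies 6.07 kb upstream of the start and outside the gene span. Its fold was 5.12 and 2.99 in wild-type replicates 1 and 2 and 5.26 and 2.73 in FLAG-TET2 replicates 1 and 2, with no control peak. In both groups replicate 1 was at the middle of its list (percentiles 53.1 and 62.2) and replicate 2 near the bottom (1.16 and 0.329). The −log10 q of the replicate 2 peaks was 2.52 and 2.25, so a threshold of 5 removes them and ends the call. The 4 summits lay within 41 bp of each other, which is usual for common regions (median 53 bp).

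No Dnmt3b peak overlapped its 300-base start window, and the nearest regions began downstream of it. The first (153649530 to 153650144) had folds of 4.72 in wild-type replicate 1, 7.21 in FLAG-TET2 replicate 1 and 5.87 in parental replicate 1. The next (153650176 to 153650426) had folds of 6.46 in wild-type replicate 1 and 7.23 in FLAG-TET2 replicate 1 and no control peak. The third (153651585 to 153651946) had folds of 5.14 and 5.31 in the wild-type replicates and 3.79 in FLAG-TET2 replicate 1, again with no control peak. FLAG-TET2 replicate 2 had no peak in any of these 3 regions.

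Dnmt3l, the cofactor without catalytic activity, had no common region. Its region seen in the most lists (chromosome 10, 78048046 to 78048528) lies 1.31 kb upstream of the second start. The fold was 11.9 and 6.71 in wild-type replicates 1 and 2 and 7.61 in FLAG-TET2 replicate 1, with no peak in FLAG-TET2 replicate 2 or any control list. The 3 highest summits lay within 15 bp of each other. A region shared with the span of Aire, a neighbouring gene that overlaps Dnmt3l (78043363 to 78043696), had a fold of 10.3 in wild-type replicate 1 and 9.04 in knockout replicate 2. The last 2 regions were seen in 1 list each, at the third start in wild-type replicate 1 (fold 5.50) and inside the gene in parental replicate 1 (fold 4.65).

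Dnmt1, the maintenance enzyme, had its single region across the second and the third start (chromosome 9, 20951885 to 20953049). The fold was 5.57 and 4.51 in wild-type replicates 1 and 2, 8.50 and 7.03 in FLAG-TET2 replicates 1 and 2, and 6.45 in parental replicate 1. The parental peak ranked at percentile 45.2 of its list, and the target peaks at 34.3, 9.92, 68.9 and 63.1. Parental replicate 2 and both knockout lists had no peak. Without parental replicate 1 the region would be common, but its highest target summits spanned 596 bp, where common regions had a median of 53 bp. The first start, in the upstream part of the span, had no peak in any list.

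Uhrf1, the partner of DNMT1, also had a region at its starts, which was its region seen in the most lists (chromosome 17, 56303231 to 56304509). Wild-type replicates had folds of 7.73 and 6.94, FLAG-TET2 replicates 6.92 and 5.77, knockout replicate 2 had 3.71 and parental replicate 1 had 6.14. The knockout peak was near the bottom of its list (percentile 1.46) and the parental one at 39.0, with target peaks between 28.3 and 70.6. The other control lists had no peak. Near the far end of the gene, a region at 56321391 to 56321854 was seen in FLAG-TET2 replicates alone, with folds of 10.1 and 5.90. Past that end, FLAG-TET2 replicate 1 alone had a peak of fold 6.04, 1103 bp outside the span (56324589 to 56324821).

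Uhrf2 had a strong region just short of the definition of common. It lies 901 bp outside the span, 0.984 kb upstream of the start (chromosome 19, 30028974 to 30029529). The fold was 18.0 and 8.65 in wild-type replicates 1 and 2, 25.8 and 14.5 in FLAG-TET2 replicates 1 and 2, and 4.96 in knockout replicate 2. The knockout peak ranked at percentile 10.8 of its list, and the target peaks between 79.4 and 96.5. Both parental lists and knockout replicate 1 had no peak there.

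The region over the Uhrf2 start itself (30029999 to 30031126) behaved differently. Its fold was 8.90 and 11.9 in knockout replicates 1 and 2, and 10.3 and 5.49 in the wild-type replicates, at percentiles of 65.1, 88.1, 79.3 and 26.1. FLAG-TET2 replicate 1 had 8.16 and parental replicate 1 had 7.98, and the other 2 lists had no peak. Both reagents thus gave control peaks over this start, and it was the only member region with peaks in 3 or more control lists (1 of 26, 3.85%, against 2.75% of all merged regions). A last region, at 30031229 to 30031433, was seen in FLAG-TET2 replicate 1 alone (fold 5.17).

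**Figure D2:**
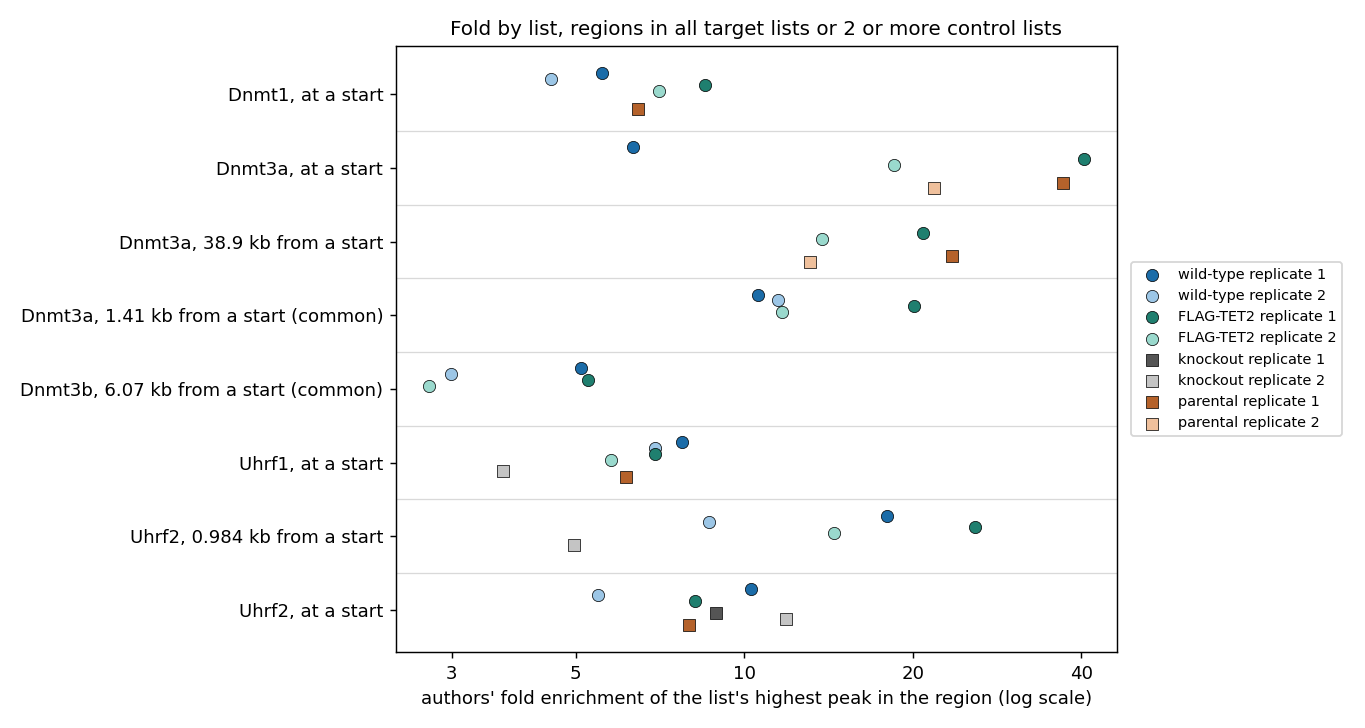
The authors' fold of the highest peak of each list (x axis, log scale) in the 8 member regions with peaks in the 4 target lists or in at least 2 control lists. Circles are target and squares control libraries, and a missing point means no peak. The common regions of Dnmt3a and Dnmt3b have circles only. The outer Dnmt3a starts have FLAG-TET2 (18.5 and 40.5) and parental points (21.8 and 37.2) and a wild-type replicate 1 point (6.34).

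Target lists had more peaks at these genes than control lists, as they did over the whole genome on average. Replicates 1 and 2 had 21 and 12 peaks at the 6 genes for wild-type, 22 and 12 for FLAG-TET2, 1 and 5 for knockout, and 10 and 3 for parental cells. Target lists exceeded control lists by 1.99 on the log2 scale (with 0.5 added to each count), where whole lists differed by 1.76. Per 1000 peaks of a list, wild-type replicates had 0.545 and 0.638 at the members against 0.443 and 0.427 for knockout. FLAG-TET2 replicates had 0.346 and 0.425 against 0.274 and 0.296 for parental cells. Over the 6 genes together, target lists were above their own controls with both reagents, but FLAG-TET2 values were not above the knockout values. Single genes did not all follow. Uhrf2 averaged 0.0667 per 1000 peaks in target and 0.16 in control lists, while the other members averaged more in target lists. Its highest control value, 0.443, came from 1 peak in knockout replicate 1, the shortest list. Knockout replicate 2 had 0.171, and wild-type replicates 1 and 2 had 0.0778 and 0.106. With the FLAG resin, Uhrf2 had 0.0472 and 0.0354 in FLAG-TET2 replicates against 0.0274 and 0 in parental ones. For Dnmt3a, FLAG-TET2 replicates had 0.142 each, and parental replicates 1 and 2 had 0.11 and 0.296.

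With lists shortened to the same length, the 2259 leading peaks, only 9 member peaks were left over all lists, too few for a comparison. Dnmt3a kept 1 each in wild-type replicate 2 and in all 4 lists of the FLAG resin, and Uhrf2 kept 1 each in wild-type replicate 1, FLAG-TET2 replicate 1 and both knockout lists. The other members kept 0 in every list. With the full lists, the difference for single genes ran from 0.886 for Dnmt3l to 2.17 for Dnmt3b. Only Uhrf1 (1.86) and Dnmt3b were above the 1.76 of whole lists. Permuting the labels within each reagent gave exact two-sided permutation p-values, unadjusted over the 6 genes, from 0.0556 for Uhrf1 to 0.444 for Dnmt3l. No p below 0.0556 is possible with 2 libraries a group, so these tests cannot pass 0.05. For Uhrf1, target lists had 2, 2, 3 and 4 peaks and control lists 0, 1, 1 and 0. How many other genes separate in this way was not counted, and target lists were longer as a whole.

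**Figure D3:**
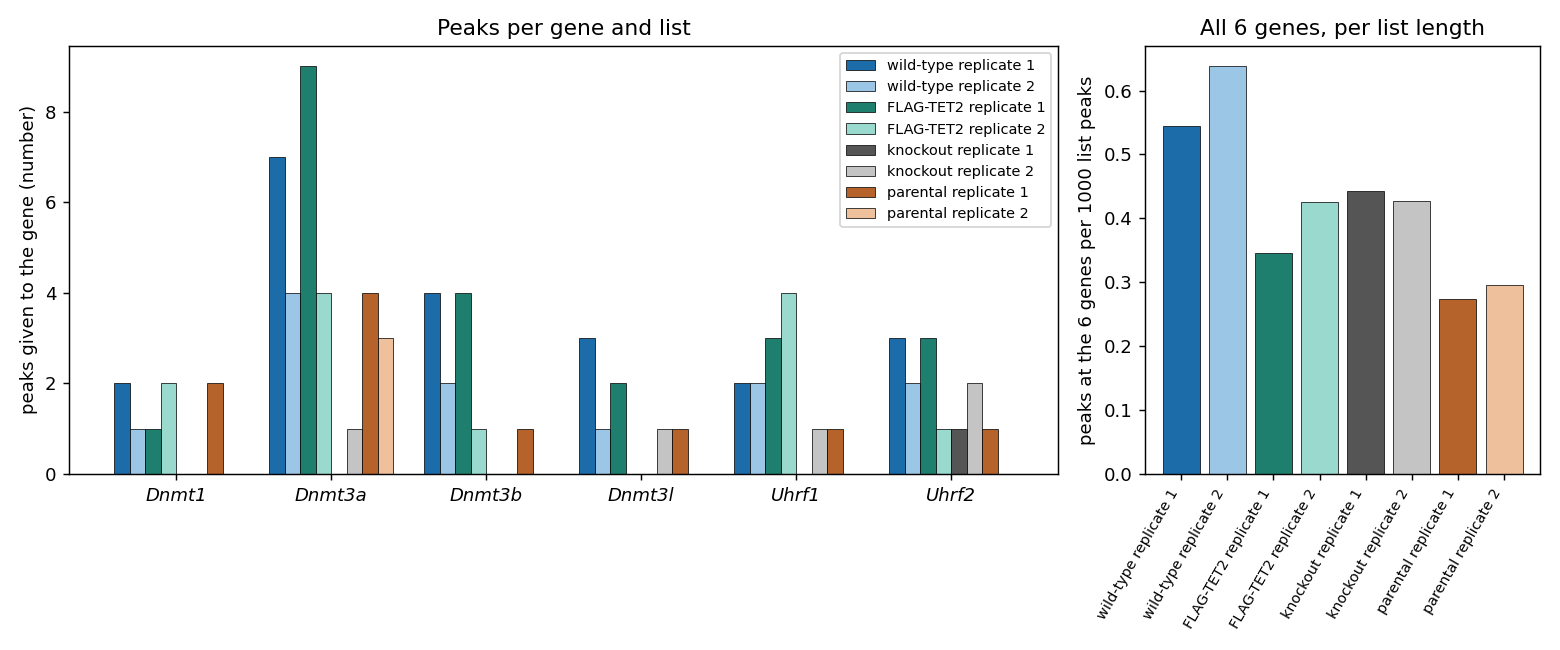
Left, the number of peaks given to each gene in each list; right, the peaks at all 6 genes per 1000 peaks of the list. A missing bar is a count of 0. Dnmt3a has the most peaks, up to 9 in FLAG-TET2 replicate 1, and Dnmt1 and Dnmt3b have none in the knockout lists.

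Read against the whole set of regions, the members did not stand far from the background. Common regions were 2 of 26 (7.69%), against 5.70% of all merged regions. Regions with a peak in each target list, whatever the controls, were 5 of 26 (19.2%), against 15.0%. A control peak lay in 12 of 26 (46.2%), against 50.7%. Of the 6 genes, 2 (33.3%) had a common region, against 17.3% of the protein-coding genes with any region. Since the members were chosen with earlier results of these data known, these shares are descriptive only.

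Of the 26 regions, 3 had peaks in each target list but also in a control list. These were the regions of Dnmt1 (parental replicate 1), Uhrf1 (knockout replicate 2 and parental replicate 1) and Uhrf2 upstream of its start (knockout replicate 2). Another 3 fell short by FLAG-TET2 replicate 2 alone (Dnmt3a, Dnmt3b and Dnmt3l), and without that list there would be 5 common regions. For Dnmt1, Dnmt3l and Uhrf2, a single list thus decided whether the gene was counted, and 7 regions rested on 1 list.

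Peaks near the starts of members were found in 3 to 6 genes of each target list and in 1, 1, 2 and 5 genes of the control lists. A peak lay within 1 kb of a start in 6 of 6 genes in wild-type replicate 1 and in 4 in replicate 2, against 53.2% and 35.5% of the 17492 protein-coding genes with a promoter window. In FLAG-TET2 replicates 1 and 2 it was 5 and 3 genes, against 54.9% and 38.8%. Parental replicates 1 and 2 had 5 and 1, against 46.1% and 19.7%, and knockout replicates 1 and 2 had 1 and 2, against 5.48% and 22.7%. FLAG-TET2 replicate 1 and parental replicate 1 thus had the same count of members with a peak near a start. A gene counted if any of its starts had a peak. The 6 members had 13 starts and the 17492 genes 21263 windows, so members had more starts per gene.

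The regions 1.41 kb from the third Dnmt3a start, 1.31 kb from the second Dnmt3l start and 0.984 kb from the Uhrf2 start were singled out after their values were seen. Their highest target summits lay at -1612 to -1561, -1646 to -1631 and -1374 to -1252 bp. At the Dnmt1 and Uhrf1 starts, peaks of different lists, with 1 to 3 in each list that had any, merged into regions of 1165 and 1279 bp, where common regions had a median width of 434 bp. The highest target summits spanned 596 bp at Dnmt1 and 885 bp at Uhrf1, against a median of 53 bp in common regions.

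**Figure D4:**
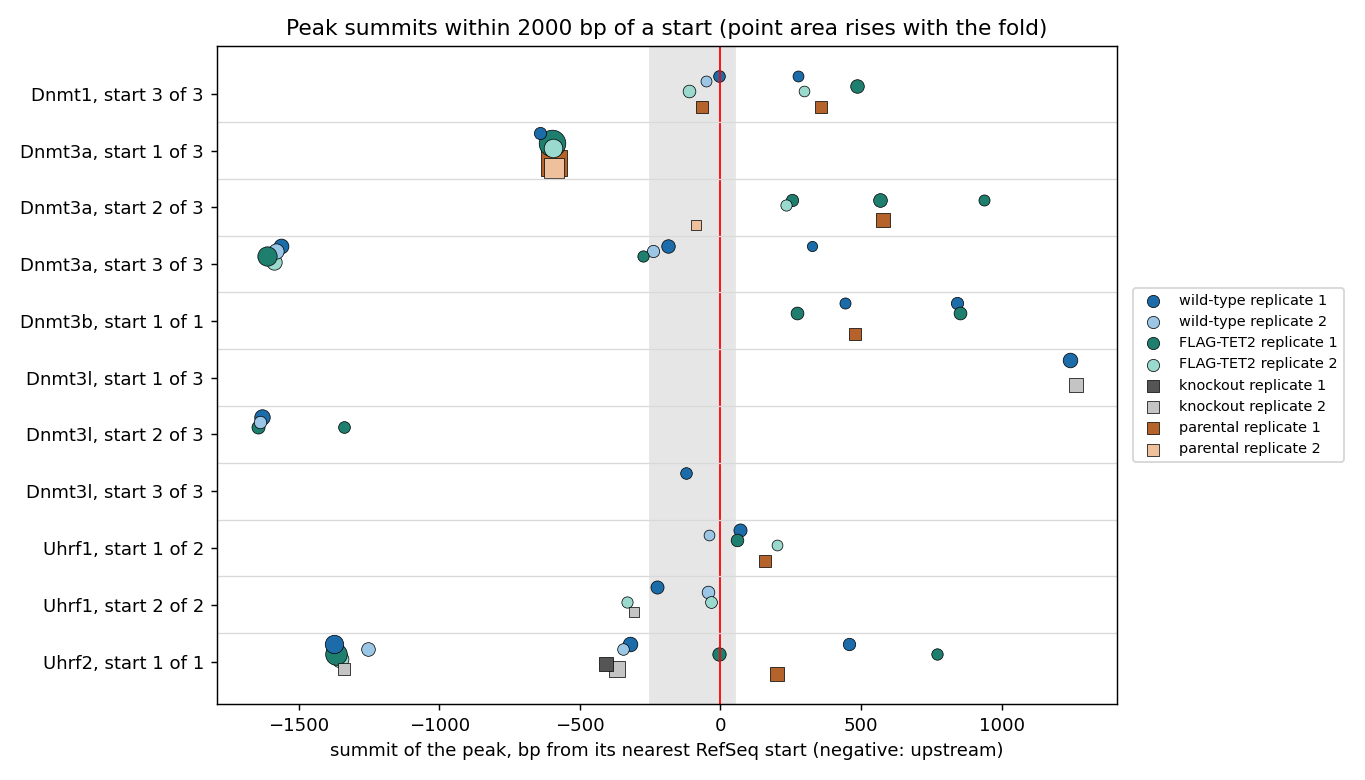
Summits of all member peaks near their closest RefSeq start, with distance in bp on the x axis (negative is upstream), with 1 row per start, circles for target and squares for control libraries, and point area rising with the fold. The grey band is the 300-base window. At the third Dnmt3a start, 1 group of target summits lies between -1612 and -1561 bp. At Uhrf2, 1 group lies between -1374 and -1252 bp and includes a summit of knockout replicate 2 at -1340 bp. Both starts also have target summits nearer to them. The large points at -600 to -592 bp of the first Dnmt3a start belong to FLAG-TET2 and parental libraries.

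Other genes of DNA methylation were counted from 5 lists, chosen with earlier results of these data known. Their counts against the background are therefore descriptive only. Of 32 genes, 13 (40.6%) had a common region, against 17.3% of all protein-coding genes with a region, and the median number of merged regions of any kind was 4 in these 32 genes and 3 in all. Among TET dioxygenases and base excision enzymes, 4 of 5 had a common region (Tet1, Tet2, Tet3 and Smug1, not Tdg). The median in this list was 9 merged regions a gene, and a gene with more regions has more chances of a common one. Among partners of maintenance methylation, 3 of 7 had one, namely Cdca7, Usp7, a deubiquitinase that binds DNMT1 and UHRF1, and Dppa3, which keeps UHRF1 off chromatin. Usp7 had 4 common regions, the most of these 32 genes, among 32 merged regions. Common regions of Tet2 and Tet3 overlapped the gene span, while those of Smug1, Cdca7 and Dppa3 lay 18.3, 28.8 and 33.6 kb outside it. The common regions of Tet1 and Usp7 with the highest mean percentile lay 8.02 and 21.4 kb outside their spans.

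Among chromatin regulators tied to de novo methylation, 5 of 9 had one (Nsd2, Ehmt1, Ehmt2, Setdb1 and Kdm2b). The region of Ehmt2, an H3K9 methyltransferase gene (chromosome 17, 34911013 to 34911307), showed folds of 13.2 and 7.92 for wild-type replicates and 19.0 and 9.16 for FLAG-TET2. That of Nsd2, which encodes an H3K36 methyltransferase (chromosome 5, 33825871 to 33826368), showed 10.8 and 6.14 for wild-type and 17.0 and 11.5 for FLAG-TET2. Of the methyl-CpG readers 1 of 6 had a common region (Zbtb38), and of the enzymes that supply methyl groups 0 of 5. The background for each of these counts is the same 17.3%, and the lists, of 5 to 9 genes each, were not tested. Median merged regions a gene were 5 for maintenance partners, 4 for chromatin regulators, 1.5 for readers and 2 for enzymes that supply methyl groups.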

How the data were processed

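TET2 ChIP-seq peak lists of 8 libraries were used, 2 in each of 4 groups. Per the submitters' processing notes, the tools were MACS2, Bowtie2, Trimmomatic, DESeq2 and DiffBind, on mm10, with no versions or roles given. Peaks had been called per library by the authors, per the peak names in the files. The deposited lists give for each peak a position, a score, a fold enrichment (a linear ratio), −log10 p and −log10 q values and a summit offset. The score was not used. The lowest −log10 q was 2.01, and no read counts were given.

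Peaks on the 21 assembled chromosomes were kept (2 to 34 left out per list) and merged with pandas 2.3.3 and numpy 2.4.6. Gene spans and promoter windows came from RefSeq tables of GRCm38.p6, in which all 6 members matched. Merging and assignment were tested on simulated data. The members and gene lists were chosen with earlier results of these data known. Regions named were all 26 at the members, and other genes where they had a common region. Peak numbers were compared with exact permutation tests over 36 arrangements, and no p over the members together is given. Alternatives were 200 bp summit windows, peaks with −log10 q from 5 upward, 10 kb or span overlap, equal list lengths, other control sets, half-peak overlap, another pseudocount, a replicate block and each library left out. Replicate numbers were not used as pairs outside the replicate block. Over all merged regions, same-numbered deviations correlated at -0.0121 (TET2 antibody) and -0.0691 (FLAG resin). With 2 libraries a group and lists of unlike length, these values cannot show whether same-numbered libraries were handled together.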

Additional observations from a re-analysis of the deposited data

How the results depend on the processing

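Over the 15 alternatives, the log2 difference in member peaks between target and control lists was positive. It ran from 0.184 with equal list lengths to 2.46 without knockout replicate 2, and leaving out each library in turn gave 1.52 to 2.46. Whole target lists were longer by 1.76, so a positive sign does not set these genes apart where list length is kept. With equal list lengths, too few member peaks were left for a comparison. With the replicate block the difference was the same 1.99, and swapping labels within same-numbered pairs cannot give a p below 0.125. The block cannot change the regions called common. These numbered 2 in the analysis as reported, 1 when a peak had to overlap the gene span (in 1 gene, Dnmt3a), and 0 with equal list lengths (in 0 genes), where only 9 member peaks were left. Leaving out each library gave 2 to 5 regions in 2 to 3 genes, with 5 without FLAG-TET2 replicate 2. At a −log10 q of at least 5 there were again 2, but in Dnmt3a and Uhrf2 in place of Dnmt3a and Dnmt3b. Without parental replicate 1, or when only knockout lists served as controls, Dnmt1 was added, and without knockout replicate 2, or when only parental lists did, Uhrf2. The Dnmt3a region was common in every alternative except equal list lengths. Read depth is unknown, so a missing peak may mean no binding or too few reads.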

Other observations

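At the Uhrf2 start, the highest summits of the 2 reagents did not coincide inside 1 merged region. The highest summits with the TET2 antibody lay at -321 and -346 bp from the start in wild-type and at -407 and -367 bp in knockout replicates. With the FLAG resin they lay at -6 bp in FLAG-TET2 replicate 1 and at 202 bp in parental replicate 1. These highest summits of target and control lists were thus nearer within a reagent than between reagents, which was not tested. A lower peak of wild-type replicate 1 in this region, of fold 6.65, had its summit at 458 bp, on the side of the FLAG resin summits.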
